A study of Homo sapiens with 12 samples.

Results

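The 8 signature subunits of canonical BAF (cBAF) and PBAF were followed at the mRNA level across 4 groups of G401 cells, a human malignant rhabdoid tumour line. ARID1A, ARID1B, DPF1 and DPF2 represented cBAF, and ARID2, PBRM1, BRD7 and PHF10 represented PBAF. The members were taken by name, not by their values, and matched 8 of 57820 gene identifiers in the deposited tables. All groups carried the genotype SMARCB1(-/-), and doxycycline induced either GFP or SMARCB1 in them. GFP cells received the solvent DMSO or the BRD9 degrader dBRD9-A, and SMARCB1 cells received the same agents, for 24 h in each case. Each group had 3 libraries. The labels do not say that the libraries came from separate cultures, so p-values measure the spread between these libraries, which may be technical. A single tumour line was used, and the promoter of the induced constructs, the length of induction and the clonal state of the cells were not given in the sources used here. The comparisons ask how the mRNAs of the complex-specific subunits differ when SMARCB1 is put back, when the BRD9 degrader is given, and when both are combined.

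SWI/SNF complexes are chromatin remodellers that use ATP to move or evict nucleosomes, and they occur as several assemblies that share a core and an ATPase module. The cBAF assembly is defined by ARID1A or ARID1B with a DPF protein, PBAF by ARID2, PBRM1, BRD7 and PHF10, and non-canonical BAF by BRD9 with BICRA or BICRAL. SMARCB1 is a core subunit of cBAF and PBAF, is not part of non-canonical BAF, and is lost in rhabdoid tumours.

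To show the DNA in front of the members whose levels changed in both comparisons of SMARCB1 with GFP, the 250 bases upstream of their annotated start are given from RefSeq (GRCh38.p14), 5′ to 3′ on the gene's strand. The authors' counts rest on another build, GRCh37/hg19, per the submitters' processing notes, and no read position was used here. Of the 8 members, 7 had a window in the table. Capitals mark matches, on either strand, to the motifs listed after the sequences.
PHF10, chr6:169724501-169724750 (minus strand): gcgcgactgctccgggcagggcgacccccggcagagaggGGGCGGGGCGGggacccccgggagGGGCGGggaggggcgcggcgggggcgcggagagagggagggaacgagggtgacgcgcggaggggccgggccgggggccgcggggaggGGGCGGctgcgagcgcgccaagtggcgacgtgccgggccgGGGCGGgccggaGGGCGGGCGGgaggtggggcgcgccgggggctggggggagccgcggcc
PBRM1, chr3:52685914-52686163 (minus strand): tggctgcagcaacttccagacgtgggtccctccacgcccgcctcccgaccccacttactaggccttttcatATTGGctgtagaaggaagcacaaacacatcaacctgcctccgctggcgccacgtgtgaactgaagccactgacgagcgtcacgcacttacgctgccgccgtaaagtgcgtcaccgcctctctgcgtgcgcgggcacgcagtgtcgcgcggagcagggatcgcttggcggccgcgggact
BRD7, chr16:50368989-50369238 (minus strand): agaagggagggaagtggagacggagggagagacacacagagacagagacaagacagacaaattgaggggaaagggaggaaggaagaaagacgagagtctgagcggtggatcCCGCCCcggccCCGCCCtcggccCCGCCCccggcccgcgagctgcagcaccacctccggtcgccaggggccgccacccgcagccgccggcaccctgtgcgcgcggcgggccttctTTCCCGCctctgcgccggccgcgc
The PHF10 window held 7 matches to the SP motif GGGCGG, overlapping matches counted, and had a GC content of 86.4%. At least that many SP matches occurred in 1.12% of the 35116 windows in the table, and at least that GC content in 0.194% of them, where the median GC content was 58%. These shares were worked out for PHF10 alone. The upstream window of PBRM1, at 63.6% GC, held 1 match to the NF-Y motif CCAAT, read here as ATTGG on the other strand. A second annotated start of PBRM1 further downstream had 6 SP matches and 83.6% GC, close to PHF10. The ARID1A window had 80.4% GC, and the remaining windows of members had 38.8% to 76%. The BRD7 window held 3 SP matches, here as CCGCCC, and 1 match to the E2F motif TTCCCGC. Across all windows at least 1 match was found to SP in 42.6%, CCAAT in 32% and E2F in 5.52%. No match in any member's window was found to the CRE motif TGACGT (7.1% of all windows), the ETS motif CCGGAAG (8.52%), the YY1 motif GATGGCGG (1.09%) or the AP-1 motif TGANTCA (6.57%). SP and E2F matches did not overlap each other in the printed windows. A match describes letters in these windows and not a bound site.

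Libraries held 34.97 to 58.54 megacounts (1e6 counts) assigned to genes. SMARCB1 had 0 to 2 counts in each GFP library and 53033 to 110893 counts in each SMARCB1 library, as labelled, and these counts do not tell the construct from the chromosomal gene. The rhabdoid markers VIM, KRT8 and KRT18 had group means of 1268 to 2535 counts per megacount (CPM). Of 9 markers of other cell types, PTPRC and CD3E were at 0 in every library, ALB, DCN, CDH5, EPCAM and CDH1 had at most 44 counts, and CD68 and COL1A1 had group means of 59.5 to 257 CPM. CD68 and COL1A1 were lower in SMARCB1 cells, and their part in the results was not tested. All 8 members passed the filter on low counts. DPF1 was the least counted, with 76 to 174 counts per library, and each of the others had at least 1130. In bulk RNA, fewer cells with an mRNA and less of it per cell cannot be told apart.

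Per kilobase of the principal annotated transcript, PHF10 was the most abundant of the 8 mRNAs in every group. In GFP cells in DMSO it reached 35.6 ± 0.902 CPM per kilobase, followed by PBRM1 at 17.8 ± 0.352, DPF2 at 14.5 ± 1.26 and BRD7 at 14.3 ± 0.301 (SD, n = 3). ARID2 followed at 6.94 ± 0.0538 CPM per kilobase, ARID1B at 4.71 ± 0.294, ARID1A at 3.99 ± 0.0766 and DPF1 at 1.22 ± 0.0824 (SD, n = 3). The libraries of DPF2 and BRD7 overlapped, and every other pair of neighbours in that order was separate. In SMARCB1 cells in DMSO PHF10 was at 22.7 ± 0.133 and PBRM1 at 20.5 ± 1.33 CPM per kilobase (SD, n = 3), so that the first and the next gene lay closer together. ARID1A and ARID1B then overlapped as well, at 4.62 ± 0.438 and 4.87 ± 0.438 CPM per kilobase (SD, n = 3). The order depended on the length used. With the union of all annotated exons, PHF10 led in GFP cells in DMSO at 11 CPM per kilobase and came behind PBRM1 (10.7) and BRD7 (10) in SMARCB1 cells in DMSO, at 7.06. On that length ARID1A lay above ARID1B, at 2.15 and 0.84 CPM per kilobase in GFP cells in DMSO.

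**Figure D1:**
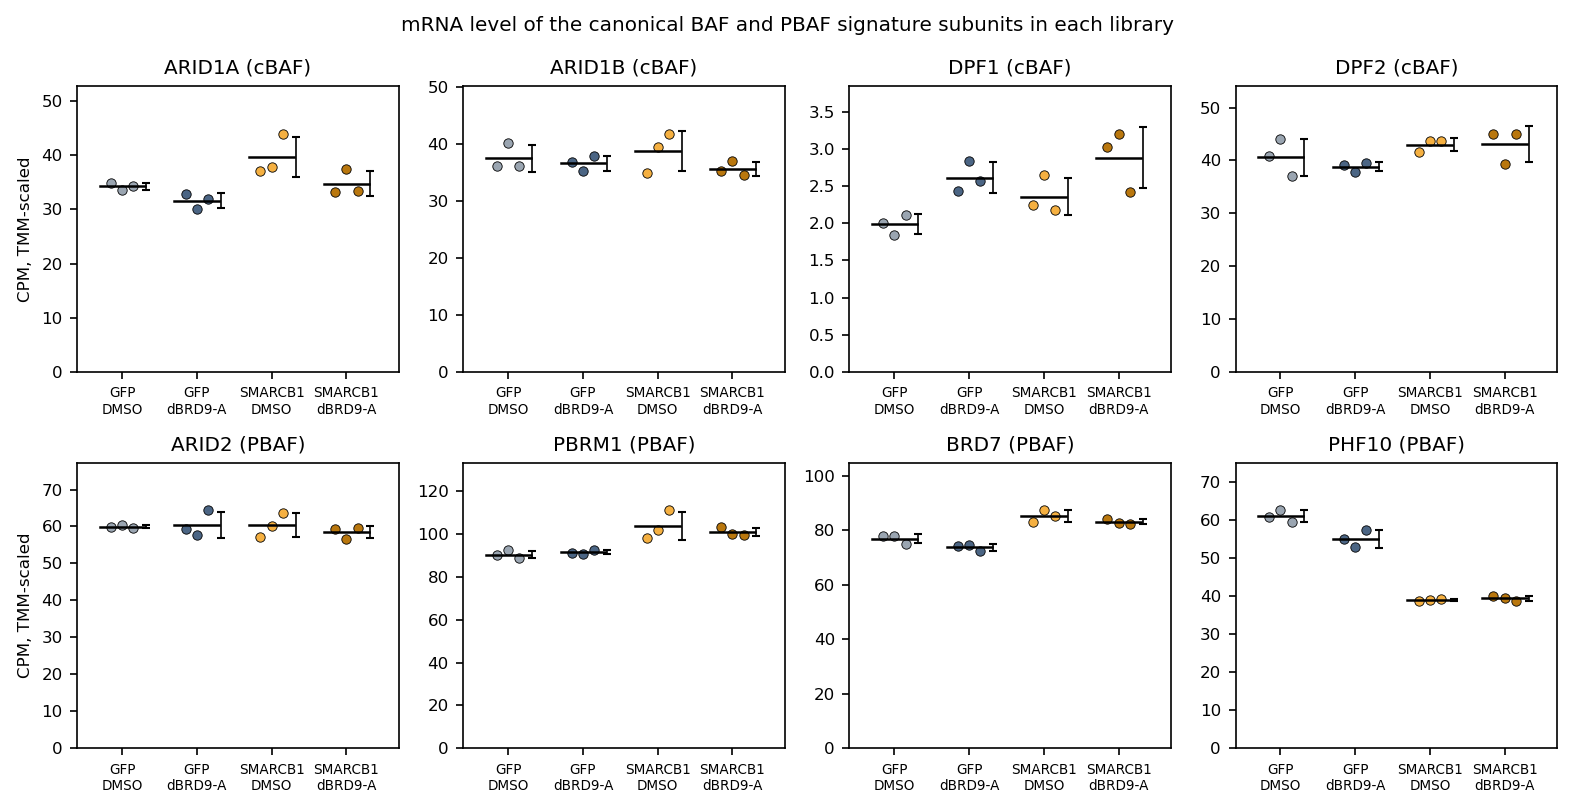
Level of each signature subunit mRNA in each library, in TMM-scaled CPM on a linear axis from 0; points are libraries, lines are group means and bars are the SD (n = 3). PHF10 lies at 59.6 to 62.7 in GFP cells in DMSO and at 38.7 to 40 in the 6 SMARCB1 libraries, while ARID2 stays between 56.7 and 64.4 in all 12.

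SMARCB1 in DMSO was accompanied by less PHF10 mRNA and by more PBRM1, BRD7 and ARID1A mRNA, while ARID2, ARID1B, DPF1 and DPF2 did not pass the test. PHF10 fell by 36% and the 3 rises were of 10.8% to 16.1%. In edgeR's quasi-likelihood test, with Benjamini-Hochberg adjustment over 15750 genes, 4 of the 8 members passed an adjusted p of 0.05, 3 higher and 1 lower. Over all genes tested the share was 65%, with 33.5% higher and 31.6% lower, so the members were called no more often than other genes. Their median log2 fold change was 0.12, against -0.0047 over all genes. By complex, 3 of 4 PBAF members and 1 of 4 cBAF members passed. This split depended on the scaling: under spike-in scaling, given further on, 4 of 4 passed in each complex, against 59.8% of all genes.

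Among the PBAF subunits, PHF10, a PHD-finger protein of the same family as the DPF proteins, had 61.0, 62.7 and 59.6 CPM in GFP cells in DMSO. In SMARCB1 cells in DMSO it had 38.9, 39.0 and 39.3 CPM. The lowest GFP library was well above the highest SMARCB1 library, and the SMARCB1 libraries lay within 1 CPM of each other. The log2 fold change was -0.64 (SE 0.035, adjusted p 2.72e-11). PBRM1, the polybromo subunit with several bromodomains, had 90.1, 92.4 and 88.9 CPM in GFP cells and 98.2, 102 and 111 CPM in SMARCB1 cells. The groups did not overlap, and the third SMARCB1 library was the highest. For PBRM1 the log2 fold change was 0.20 (SE 0.037, adjusted p 0.000135). BRD7, a bromodomain protein, had 77.9, 78.0 and 75.1 CPM in GFP cells and 83.0, 87.4 and 85.4 CPM in SMARCB1 cells, again without overlap. Its log2 fold change was 0.15 (SE 0.029, adjusted p 0.000241). ARID2, the ARID-domain scaffold of PBAF, had 59.9, 60.5 and 59.6 CPM in GFP cells and 57.3, 60.2 and 63.7 CPM in SMARCB1 cells. The SMARCB1 libraries of ARID2 lay on both sides of the GFP libraries, and the log2 fold change of 0.01 (SE 0.043, adjusted p 0.815) did not pass.

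Among the cBAF subunits, ARID1A, an ARID-domain scaffold that is often mutated in cancer, had 35.0, 33.7 and 34.2 CPM in GFP cells in DMSO. In SMARCB1 cells it had 37.2, 37.8 and 44.0 CPM. The groups did not overlap, and the rise rested in part on the third SMARCB1 library. The log2 fold change was 0.22 (SE 0.059, adjusted p 0.004), and without that library it was 0.13 (adjusted p 0.0439, the highest over the 18 alternatives, which went down to 4.06e-05). Its paralog ARID1B had 36.2, 40.2 and 36.2 CPM in GFP cells and 35.0, 39.4 and 41.9 CPM in SMARCB1 cells. These overlapped, and the log2 fold change was 0.05 (SE 0.058, adjusted p 0.433). DPF2, the widely expressed PHD-finger subunit, had 40.8, 44.0 and 37.0 CPM against 41.5, 43.8 and 43.7 CPM. Its groups overlapped too, at 0.09 (SE 0.058, adjusted p 0.204). DPF1, which is best known from neurons, had 2.01, 1.84 and 2.11 CPM against 2.25, 2.65 and 2.19 CPM. Its SMARCB1 libraries were all higher, but at these counts the log2 fold change of 0.24 (SE 0.13, adjusted p 0.135) did not pass. In CPM the groups were separate for 5 of 8 members, against 68.7% of all genes.

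With dBRD9-A present in both groups, the comparison of SMARCB1 with GFP cells took its group levels from the other 6 libraries. The filter, the scaling and the estimate of the spread came from all 12 libraries, so this comparison and that in DMSO were not independent. They also differed in the level of SMARCB1 mRNA in SMARCB1 cells, 1875 CPM in DMSO and 1307 CPM with dBRD9-A. The part of that difference in this comparison and in the interaction was not tested. PHF10 fell again, and PBRM1 and BRD7 rose again under TMM scaling but turned under spike-in scaling, as given further on. DPF2 passed the test, with the same turn, and ARID1A did not. There were 4 of 8 members called, 3 higher and 1 lower, against 63.3% of all genes (33% higher and 30.4% lower). The members' median log2 fold change was 0.14, against 0.0085 over all genes.

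Under the degrader PHF10 had 55.1, 52.9 and 57.6 CPM in GFP and 40.0, 39.7 and 38.7 CPM in SMARCB1 cells. The groups were far apart, the log2 fold change being -0.48 (SE 0.036, adjusted p 2.14e-09). BRD7 had 74.4, 74.7 and 72.3 CPM against 84.2, 82.9 and 82.4 CPM, with no overlap, and its log2 fold change reached 0.17 (SE 0.03, adjusted p 6.65e-05). PBRM1 had 91.4, 90.7 and 92.8 CPM against 103, 100.2 and 99.8 CPM, also with no overlap. The log2 fold change of PBRM1 was 0.14 (SE 0.038, adjusted p 0.00337). For ARID2 the values were 59.3, 57.6 and 64.4 CPM against 59.4, 56.7 and 59.5 CPM, which overlapped (log2 fold change -0.05, adjusted p 0.38).

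Under the degrader DPF2 had 39.1, 37.9 and 39.5 CPM in GFP and 45.0, 39.2 and 45.1 CPM in SMARCB1 cells. The second SMARCB1 library lay among the GFP libraries. The log2 fold change was 0.15 (SE 0.06, adjusted p 0.0396), and the call was lost when any of 6 of the 12 libraries was omitted, with adjusted p up to 0.188. Those libraries were GFP cells in DMSO replicate 1, every library of GFP cells with dBRD9-A, and SMARCB1 cells with dBRD9-A replicates 1 and 3. Across the 18 alternatives the adjusted p of DPF2 ran from 0.00307 to 0.188, and with the replicate number as a block it was 0.0569. ARID1A had 32.8, 30.2 and 31.9 CPM against 33.3, 37.4 and 33.5 CPM. Its groups did not overlap, but the log2 fold change of 0.14 (SE 0.062, adjusted p 0.0634) did not pass. ARID1B, with 36.9, 35.2 and 37.9 CPM against 35.4, 37.1 and 34.6 CPM, and DPF1, with 2.43, 2.84 and 2.57 CPM against 3.03, 3.21 and 2.42 CPM, overlapped between groups. Their log2 fold changes were -0.04 (adjusted p 0.611) and 0.15 (adjusted p 0.339). Groups were separate for 4 of 8 members, against 66.2% of all genes.

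**Figure D2:**
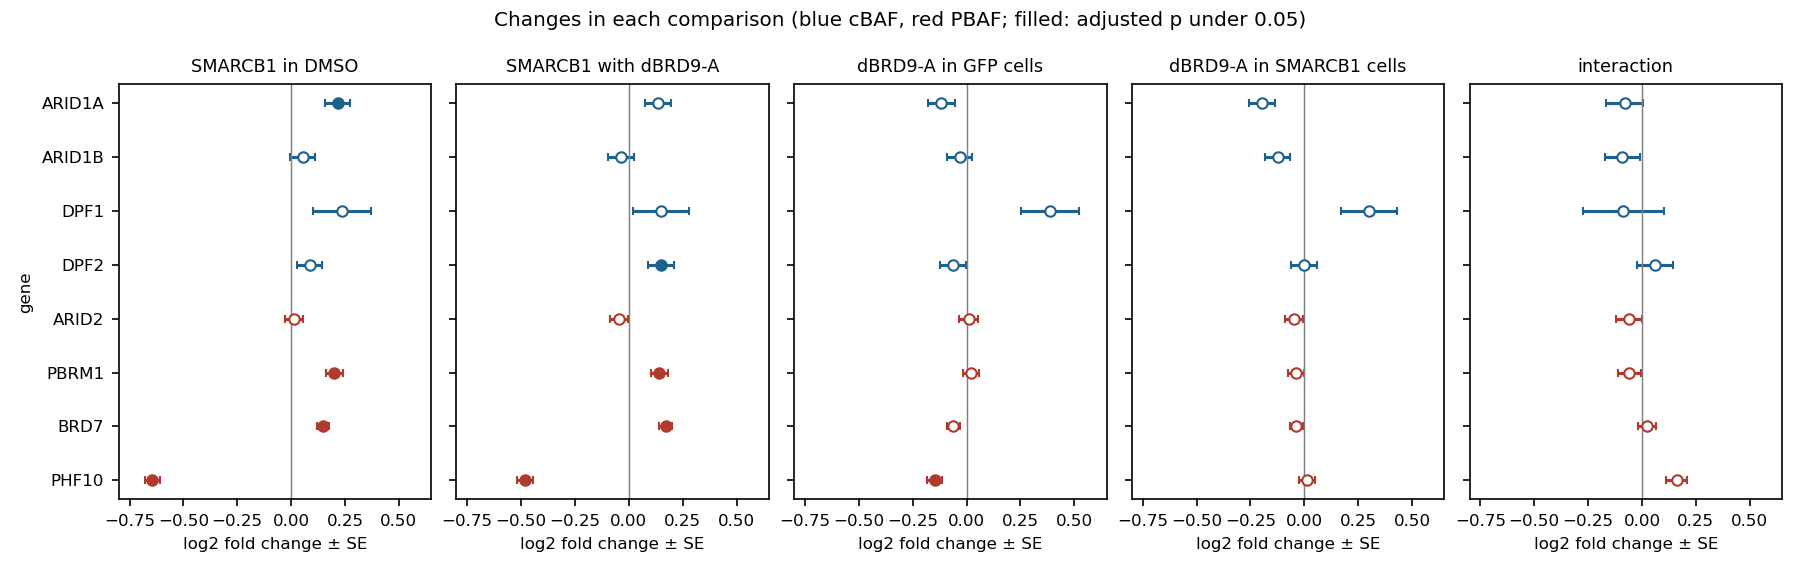
Log2 fold change of each signature subunit in each of the 5 contrasts, with the SE from the quasi-F statistic; cBAF is blue, PBAF is red, and filled points had an adjusted p under 0.05. PHF10 is at -0.64 and -0.48 in the comparisons of SMARCB1 with GFP cells, and no member is filled for dBRD9-A in SMARCB1 cells or for the interaction.

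In GFP cells, dBRD9-A was followed by a small fall of PHF10 and by no call in the other members. The values of PHF10 were those given above, 59.6 to 62.7 CPM in DMSO and 52.9 to 57.6 CPM with dBRD9-A, and the groups did not overlap. PHF10 fell by 0.15 on the log2 scale (SE 0.035, adjusted p 0.00739), and under spike-in scaling its direction turned, at 0.21, below the shift of 0.36 common to all genes. Without GFP cells with dBRD9-A replicate 2 the adjusted p was 0.0501, the highest of the 18 alternatives, and the lowest was 0.00348. Thus 1 of 8 members was called, against 15.9% of all genes (7.43% higher and 8.47% lower). DPF1 was at 1.84 to 2.11 CPM in DMSO and 2.43 to 2.84 CPM with dBRD9-A. These did not overlap, but the log2 fold change of 0.39 (SE 0.14, adjusted p 0.0615) did not pass. It passed in 4 of 18 alternatives, over which the adjusted p ran from 4.95e-05 to 0.195. ARID1A had a log2 fold change of -0.12 (adjusted p 0.232) and BRD7 of -0.06 (adjusted p 0.194), both with separate groups. The adjusted p of DPF2, ARID1B, PBRM1 and ARID2 lay between 0.558 and 0.917. Groups were separate for 4 of 8 members, against 34% of all genes. The members' median log2 fold change was -0.05, against -0.0005 over all genes.

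In SMARCB1 cells, dBRD9-A left 0 of 8 members past the threshold in edgeR's quasi-likelihood test and 0 in DESeq2, against 1.93% of all genes. At an unadjusted p under 0.05 there were 2, ARID1A and DPF1, against 2006 of all 15750 genes. ARID1A had 37.2, 37.8 and 44.0 CPM in DMSO and 33.3, 37.4 and 33.5 CPM with dBRD9-A, and the groups overlapped. Its log2 fold change was -0.20 (SE 0.06, adjusted p 0.127), with adjusted p from 0.00288 to 0.469 over the 18 alternatives, of which 3 passed. Among those was the edgeR fit without SMARCB1 cells with dBRD9-A replicate 2 (adjusted p 0.0284). DPF1 was at 0.30 (SE 0.13, adjusted p 0.329). PHF10, at 38.9 to 39.3 CPM in DMSO and 38.7 to 40.0 CPM with dBRD9-A, showed a log2 change of 0.01 (SE 0.037, adjusted p 0.93). No member had separate groups, against 16.9% of all genes, and the members' median log2 fold change was -0.04, against 0.0028 over all genes.

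The interaction asks whether the effect of dBRD9-A differed between SMARCB1 and GFP cells. It passed for 0 of 8 members in edgeR's quasi-likelihood test and for 0 in DESeq2, against 3.8% of all genes. At an unadjusted p under 0.05 it passed for PHF10 alone, against 2506 of all 15750 genes. PHF10 had a log2 interaction of 0.16 (SE 0.05, adjusted p 0.0982), so the call in GFP cells and its lack in SMARCB1 cells did not amount to a difference past the threshold. The members' median interaction was -0.06, against 0.0059 over all genes.

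Ratios within a library do not depend on how libraries are scaled, so they were used to describe the balance among the subunits. Per kilobase of principal transcript, the ratio of PHF10 to PBRM1 was 1.99 ± 0.0125 in GFP cells in DMSO and 1.78 ± 0.0546 with dBRD9-A (SD, n = 3). In SMARCB1 cells it was 1.11 ± 0.0643 in DMSO and 1.15 ± 0.0145 with dBRD9-A (SD, n = 3). Over the union of all exons the ratio was 1.18 ± 0.00739 in GFP cells in DMSO and 0.659 ± 0.038 in SMARCB1 cells in DMSO (SD, n = 3). PHF10 was thus lower relative to PBRM1 on both lengths, but whether it lay above or below PBRM1 in SMARCB1 cells depended on the length. The ratio of PHF10 to BRD7 went from 2.48 ± 0.032 in GFP cells in DMSO to 1.43 ± 0.0346 in SMARCB1 cells in DMSO, and that to ARID2 from 5.12 ± 0.0909 to 3.26 ± 0.154 (SD, n = 3). Set against DPF2, its relative in cBAF, PHF10 went from 2.46 ± 0.155 to 1.48 ± 0.0375 (SD, n = 3). PHF10 made up 47.6% ± 0.22 of the summed level of the 4 PBAF mRNAs in GFP cells in DMSO and 45.3% ± 0.804 with dBRD9-A (SD, n = 3). In SMARCB1 cells it made up 34.4% ± 0.852 in DMSO and 35.3% ± 0.337 with dBRD9-A (SD, n = 3). Over the union of all exons, the shares in DMSO were 32.1% in GFP cells and 21.5% in SMARCB1 cells, and in counts without regard to length they were 21.2% and 13.6%.

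The other PBAF ratios moved less. PBRM1 to ARID2 was 2.57 ± 0.0307 in GFP cells in DMSO and 2.93 ± 0.0493 in SMARCB1 cells in DMSO, and BRD7 to PBRM1 was 0.804 ± 0.0107 and 0.778 ± 0.0464 (SD, n = 3). In cBAF, ARID1A to ARID1B was 0.85 ± 0.065 in GFP cells in DMSO and 0.95 ± 0.0524 in SMARCB1 cells in DMSO (SD, n = 3). Over the union of all exons it was 2.57 ± 0.197 and 2.87 ± 0.158 (SD, n = 3), so which paralog lay higher depended on the length. The summed 4 PBAF mRNAs stood to the summed 4 cBAF mRNAs at 3.06 ± 0.111 in GFP cells in DMSO and 2.51 ± 0.0473 in SMARCB1 cells in DMSO (SD, n = 3). With PHF10 left out of the sum, the ratios were 1.6 ± 0.0643 and 1.65 ± 0.018 (SD, n = 3), so the difference between the groups was then within the spread. The ratios depend on the lengths assumed, and no test was made of them.

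**Figure D3:**
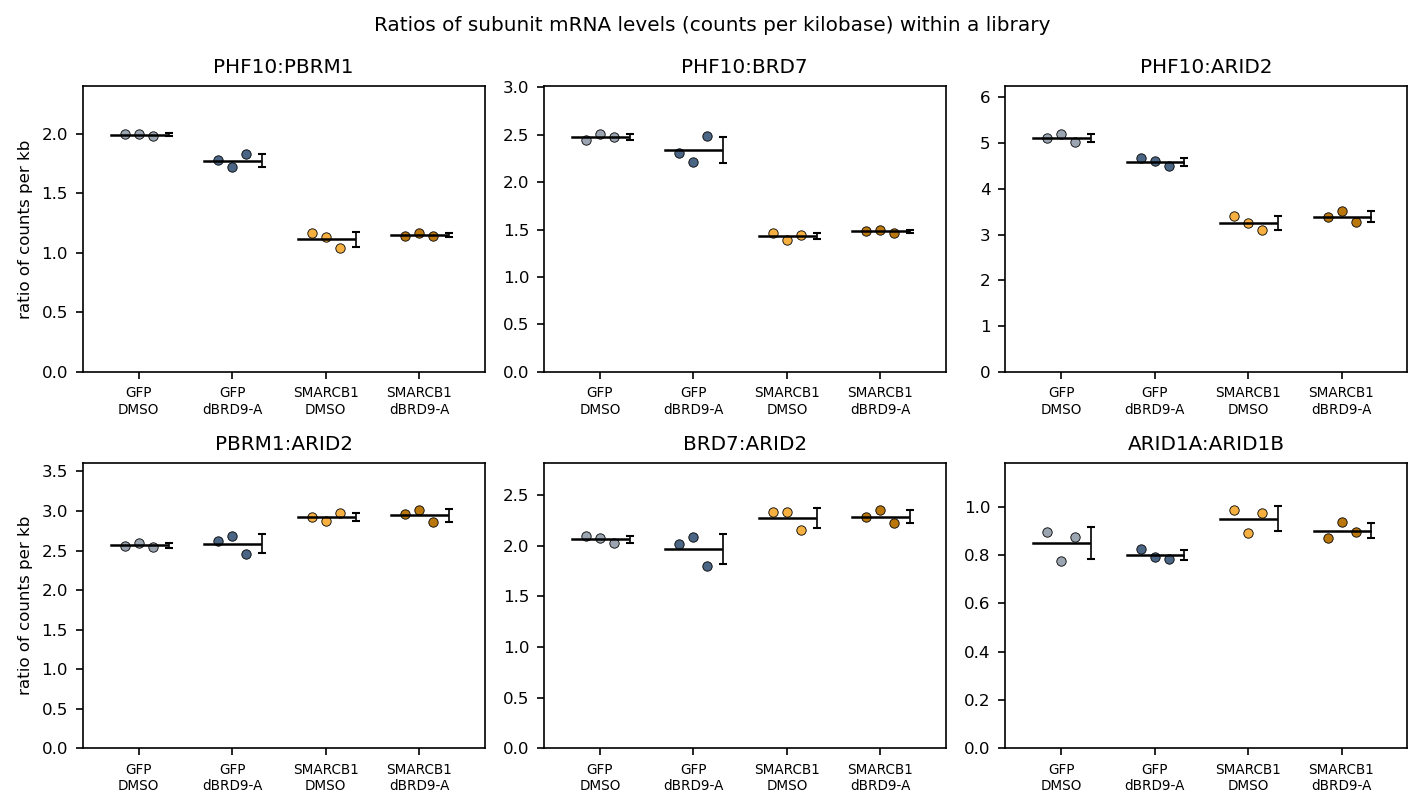
Ratios of subunit mRNA levels within each library, as counts per kilobase of principal transcript, on linear axes from 0; points are libraries, lines are means and bars are the SD (n = 3). The ratios of PHF10 to the other PBAF mRNAs are lower in all SMARCB1 libraries than in all GFP libraries, from 1.99 to 1.11 against PBRM1 in DMSO.

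Scaling the libraries to the ERCC spike-in RNAs, which made up 0.9634% to 1.302% of the counts, moved all genes together. How the spike-ins were added was not given in the sources used here. The all-gene median of the log2 fold change became 0.17 for SMARCB1 in DMSO, -0.32 for SMARCB1 with dBRD9-A, 0.36 for dBRD9-A in GFP cells, -0.14 for dBRD9-A in SMARCB1 cells and -0.49 for the interaction. PHF10 fell with SMARCB1 under both scalings, at -0.48 in DMSO and -0.81 with dBRD9-A under spike-in scaling, each below its common shift. PBRM1 and BRD7 rose with SMARCB1 in DMSO under both, at 0.37 and 0.32, and turned with dBRD9-A, to -0.19 and -0.15, which still lay above the common shift of -0.32. ARID1A was at 0.39 in DMSO and -0.19 with dBRD9-A, and DPF2 at 0.25 and -0.18. ARID2 lay close to the common shift in DMSO (0.18) and with dBRD9-A (-0.38). Under this scaling 8 members were called for SMARCB1 in DMSO, 7 higher and 1 lower (59.8% of all genes, 43.4% higher and 16.4% lower). With dBRD9-A 7 were called, all lower (71% of all genes, 13.5% higher and 57.4% lower). For dBRD9-A in GFP cells 8 were called, all higher (71.8% of all genes, 70.4% higher and 1.44% lower). For dBRD9-A in SMARCB1 cells ARID1A was called, lower at -0.34 (5.54% of all genes, 0.248% higher and 5.3% lower). The interaction was called for 8 members, all lower (71.6% of all genes, 0.419% higher and 71.1% lower).

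**Figure D4:**
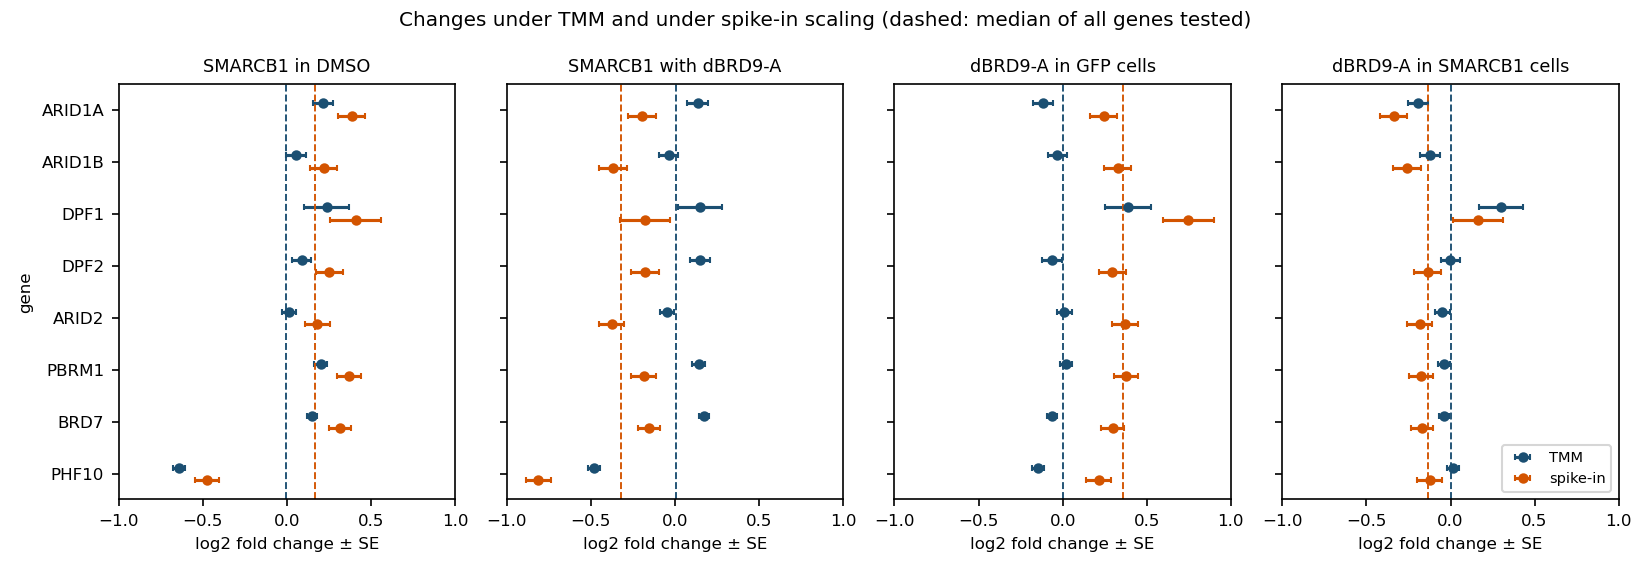
Log2 fold change with SE of each signature subunit under TMM scaling and under spike-in scaling, with the median of all genes tested as dashed lines. PHF10 is left of both medians in each comparison of SMARCB1 with GFP cells, while PBRM1 and BRD7 with dBRD9-A lie right of their medians on each scale but on either side of 0.

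Some members overlap other genes, and whether the authors' counting used strand was not given in the sources used here. In GENCODE 29, 18 genes overlap a member, of which 6 were tested. ADCY7, an adenylate cyclase gene on the strand opposite BRD7, shares 3593 exon bases with it. ADCY7 rose from 0.318 ± 0.0895 to 8.72 ± 0.678 CPM with SMARCB1 in DMSO (SD, n = 3; log2 fold change 4.72, adjusted p 5.2e-15). The gain was 8.4 CPM for ADCY7 and 8.27 CPM for BRD7, and with dBRD9-A 7.78 and 9.37 CPM. The deposited values of BRD7 and of ADCY7 were whole numbers in all 12 libraries. The part of ADCY7 reads in the rise of BRD7 was not tested. PHF10 shares 184 exon bases with C6orf120 on the opposite strand, which went from 88.5 to 82.2 CPM (log2 fold change -0.11, adjusted p 0.00392) in DMSO and did not pass with dBRD9-A (-0.01, adjusted p 0.76). Opposite PBRM1, GNL3 shares no exon base and fell by 0.42 on the log2 scale in DMSO (adjusted p 8.85e-09), and SMIM4 shares 146 and was at 0.07 (adjusted p 0.303). With dBRD9-A, GNL3 was again at -0.42 (adjusted p 1.06e-08), and SMIM4 rose by 0.20 (adjusted p 0.00935), the direction PBRM1 had there. The part of these reads in the values of PBRM1 was not tested. The antisense genes AL512408.1 of ARID1A and AL355297.4 of ARID1B were called in none of the contrasts, with adjusted p of at least 0.521.

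The members differed in how far their group means ranged on the log2 scale, from 0.64 for PHF10, 0.52 for DPF1 and 0.32 for ARID1A to 0.04 for ARID2. For those 3 with the widest range, the genes of most similar pattern were sought among 12585 genes by the root-mean-square difference of centred log2 CPM over the 12 libraries. The closest to PHF10 were ARID3B (0.03) and MBOAT2 (0.0397). For SMARCB1 in DMSO their log2 fold changes were -0.60 and -0.66, against -0.64 for PHF10, a likeness set by the way they were chosen. PLK4 (0.112) and ZSCAN5A (0.113) were closest to DPF1, and GOLGA3 (0.0661) and TENT4A (0.0661) to ARID1A.

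Of the 21 other SWI/SNF genes, 19 were tested. With SMARCB1 in DMSO 15 of them were called, 9 higher and 6 lower, and with dBRD9-A 17, 10 higher and 7 lower, where 65% and 63.3% of all genes were called. SMARCB1 itself is among them, as the induced gene. These splits depended on the scaling. Under spike-in scaling 11 were higher and 1 lower in DMSO, still mostly higher. With dBRD9-A the split turned, to 3 higher and 10 lower. All genes were split 43.4% higher and 16.4% lower in DMSO under that scaling, and 13.5% higher and 57.4% lower with dBRD9-A. SMARCD3, a member of the SMARCD family of accessory subunits, fell by 0.75 on the log2 scale in DMSO (adjusted p 5.42e-11), from 33.0 to 19.6 CPM, and by 0.93 with dBRD9-A (adjusted p 3.54e-12). SMARCA2, the alternative ATPase, had 0 to 1 counts in each GFP library and 12 to 14 in each SMARCB1 library in DMSO, near the limit of detection. BRD9 mRNA went from 38.3 to 46.9 CPM in DMSO (log2 fold change 0.29, adjusted p 1.64e-05), and the protein was not measured. DPF3, the remaining DPF paralog, had 0 to 8 counts per library and was not tested. For dBRD9-A in GFP cells 5 were called, 3 higher and 2 lower, where 15.9% of all genes were called. Under spike-in scaling 17 were higher and 0 lower, where 70.4% of all genes were higher and 1.44% lower. BICRAL, a non-canonical BAF subunit, rose most among them, from 6.09 to 9.73 CPM (log2 fold change 0.67, adjusted p 9.67e-06), followed by BCL7B (0.28, adjusted p 0.000557) and SMARCD3 (0.19, adjusted p 0.00456). In SMARCB1 cells 2 were called for dBRD9-A, where 1.93% of all genes were called. These were SMARCB1 at -0.52 (adjusted p 4.95e-08), from 1875 to 1307 CPM, and BICRAL at 0.45 (adjusted p 0.00529, and 0.0728 under spike-in scaling). None was called for the interaction in edgeR or DESeq2, with 3 at an unadjusted p under 0.05, against 2506 of all 15750 genes. Under spike-in scaling the interaction was called for 17, all lower, where 71.1% of all genes were lower.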

How the data were processed

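Polyadenylated RNA libraries (a TruSeq Stranded mRNA kit, per the labels' protocols) were sequenced from 12 samples in 4 groups of 3. The authors deposited 3 tables of expected counts per gene. STAR, RSEM 1.3.1, DESeq2 and the build GRCh37/hg19 are named in the submitters' processing notes, without roles. The annotation and the use of strand are not given in the sources used here. For the 6 libraries that occur in several tables, the values were the same. Expected counts share reads between similar genes, and 97.43% of the deposited values were whole. Replicate pairs differed by more than sampling noise (chi-square per degree of freedom 3.03 to 25.98).

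Counts were rounded and tested with edgeR 4.0.16 in R 4.3.3. Genes passing filterByExpr (minimum count 10), 15750 in all, were TMM-scaled (factors 0.9765 to 1.016) and fitted in 1 quasi-likelihood model of all 12 libraries, with a coefficient per group. Benjamini-Hochberg adjusted p-values under 0.05 over all genes tested were called, with no fold limit, and adjusted p-values in the text are from this test unless another is named. Standard errors come from the quasi-F statistic, and CPM uses TMM-scaled library sizes without spike-ins. A count of 3, taken as the floor, equals 0.0513 to 0.0858 CPM and covers counting error only. Lengths and overlaps come from GENCODE 29 (GRCh38) and may differ from the authors' annotation. The fit was run on simulated counts with few changed genes and the same dispersion for every gene, a setting unlike these data.

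The text names the 8 members, SMARCB1, BRD9, DPF3, the tested genes that overlap a member, the 3 other SWI/SNF genes with the largest changes past the threshold in each contrast, and the 2 genes most like each of the 3 members with the widest range (mean of at least 50 counts). The members, lists and rules were chosen with earlier results of these data known. Alternatives were DESeq2 1.42.0, its size factors in edgeR, spike-in scaling, no filter, a replicate block, the compared groups alone, leaving out each library, a fold limit and, added after seeing the data, lengths over all exons.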

Additional observations from a re-analysis of the deposited data

How the results depend on the processing

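The 40 member results kept their call and direction in 655 of 712 values recomputed under the alternatives. These values are not independent, since every alternative reuses the same libraries. DESeq2 and RLE size factors changed none of the 40 calls. Spike-in scaling left 11 of the 40 the same in call and direction and added a call to 15. It turned the sign of 14. For SMARCB1 with dBRD9-A these were ARID1A (-0.19), DPF1 (-0.18, not called), DPF2 (-0.18), PBRM1 (-0.19) and BRD7 (-0.15). For dBRD9-A in GFP cells they were ARID1A (0.24), ARID1B (0.33), DPF2 (0.29), BRD7 (0.30) and PHF10 (0.21), for dBRD9-A in SMARCB1 cells PHF10 (-0.12, not called), and for the interaction DPF2 (-0.43), BRD7 (-0.47) and PHF10 (-0.34). By the construction of this alternative all genes shift together. The members called under it numbered 8, 7, 8, 1 and 8. The order is SMARCB1 in DMSO, SMARCB1 with dBRD9-A, dBRD9-A in GFP cells, dBRD9-A in SMARCB1 cells and interaction. Over all genes 9412, 11175, 11310, 873 and 11270 were called in that order, which is 59.8%, 71%, 71.8%, 5.54% and 71.6%. With a limit of 1 on the absolute log2 fold change, 0 members were left in each contrast, and 2305, 2300, 143, 23 and 42 of all genes, in that order. For dBRD9-A in SMARCB1 cells 652 genes and 1 member (ARID1A) were called without the filter, and 159 genes with the compared groups alone, against 304 in the model of all libraries. With the compared groups alone 2 members and 2906 of all genes were called for dBRD9-A in GFP cells, against 1 member and 2504 genes in the model of all libraries. The cause of these differences was not tested. Leaving out each of the 12 libraries in turn gave, over all genes and in the same order, 9648 to 10491, 9352 to 10072, 1778 to 2804, 169 to 422 and 422 to 862 calls. The lowest count for dBRD9-A in SMARCB1 cells (169) came without SMARCB1 cells in DMSO replicate 3, and counts of 174 and 196 came without SMARCB1 cells in DMSO replicate 2 and SMARCB1 cells with dBRD9-A replicate 3. Leaving out a library also turned the sign of 8 member results that were near 0 and not called, with ranges of -0.0094 to 0.118 for ARID1B and -0.0295 to 0.0467 for ARID2 (SMARCB1 in DMSO), -0.0571 to 0.0185 for ARID1B and -0.037 to 0.0433 for ARID2 (dBRD9-A in GFP cells), -0.0415 to 0.063 for DPF2 and -0.0767 to 0.0137 for PBRM1 (dBRD9-A in SMARCB1 cells), and -0.1435 to 0.0044 for ARID1A and -0.179 to 0.0156 for DPF1 (interaction). Without the filter DPF2 turned for dBRD9-A in SMARCB1 cells (0.0016, from -0.0008). Members called were 4 to 5, 3 to 5, 0 to 2, 0 to 1 and 0 to 0. With the replicate number as a block, the call of DPF2 for SMARCB1 with dBRD9-A was lost (adjusted p 0.0569), and no other member's call changed. Deviations of same-numbered libraries correlated at -0.056 to 0.061, so no deviation shared by replicate number was seen. These correlations cannot decide whether same-numbered libraries were prepared together, which the labels do not state. Genes of like pattern were the same with a mean of at least 10 counts. DPF1, at 76 to 174 counts, is the member whose precision depth limits most.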
